A study of Mus musculus with 15 samples.

Results

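NIH 3T3 fibroblasts expressing human C/EBPδ were compared with the same cells carrying the empty vector, as 3 arrays titled delta against 3 titled vector, which are 6 of the 15 arrays of the series. NIH 3T3 is an immortal mouse fibroblast line, and RNA was hybridised to Affymetrix MG_74Av2 oligonucleotide arrays. The 3 CEBPD cultures carried the plasmid pMTCB6+ with a human C/EBPδ cDNA behind a metallothionein promoter, which zinc switches on, and the 3 vector cultures carried the plasmid with no insert. The other 9 arrays, 3 each for C/EBPα, C/EBPβ and C/EBPε (CEBPA, CEBPB and CEBPE), entered the fit and served for direct comparisons. All 15 cultures, vector included, were selected with G418 and treated with zinc sulphate for 16 h. Per the labels the transfectants were polyclonal and the cultures were triplicate clones, and whether replicate cultures trace back to different transfections is not given in the sources used here. The p-values therefore measure the spread between these cultures, and a difference between transfected pools cannot be told apart from an effect of C/EBPδ.

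C/EBPs are basic leucine zipper transcription factors that bind DNA as dimers and share a recognition motif. C/EBPδ is induced early when fibroblasts are driven towards fat cells, ahead of C/EBPα, and it is a well-known factor of the acute phase and inflammatory responses. In many resting cells its level is low and rises quickly after cytokines or lipopolysaccharide. The series is titled as a profiling of C/EBP targets, and the comparison addresses which genes C/EBPδ cells express at another level than vector cells.

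Signals are given in units of the deposited intensities after scaling each array to a common median, and differences are log2(CEBPD) minus log2(vector). The table holds 12422 probe sets without the 66 controls, of which 6963, for 5338 genes, were bright enough to be tested. A probe set was called where limma's moderated test gave a Benjamini-Hochberg adjusted p under 0.05. Correlations between log2 arrays were 0.941 to 0.960 within vector, 0.942 to 0.965 within CEBPD and 0.933 to 0.961 between them. Of 12 fibroblast markers on the array, 10 were tested and 0 were called, with a summed signal of 114888 to 150795 in vector and 112670 to 117677 in CEBPD. Markers of fat, epithelial, endothelial, muscle and neural cells and of macrophages or granulocytes gave 0 calls as well. Most of them were too dim to be tested. Those tested were 1 of 6 fat, 1 of 7 epithelial, 2 of 6 endothelial, 3 of 6 muscle and 1 of 5 neural markers on the array. Over all genes tested 0.356% were called, so 0 calls among so few markers says little about cell identity. The summed signal of the 10 macrophage or granulocyte markers was 14256 to 15357 in vector and 12076 to 13419 in CEBPD, so those sums did not overlap. Of these 10 markers, 4 were bright enough to be tested. Mean Csf1r was 5269 units in vector and 4062 in CEBPD, and mean Cd68 was 3103 and 2811. Cd14 went the other way, at 2959 in vector and 3316 in CEBPD, and Lyz2 was nearly level at 656 and 664. The cultures are of a fibroblast line, bulk RNA gives no count of cells, and the cause of the lower sum was not tested.

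The array reads mouse Cebpd, and whether its probes also read the human cDNA was not tested. Mouse Cebpd read 5498, 8136 and 6437 units in vector and 4454, 6469 and 5440 in CEBPD (log2 -0.29, 95% interval -0.69 to 0.10), and the groups overlapped. This probe set therefore gives no measure of how much C/EBPδ the cells made. Cebpb, another activator of the family, read 9526, 17826 and 15243 against 7955, 10633 and 12684 (log2 -0.42, interval -1.12 to 0.27). Cebpg, a short family member that dimerises with the others, lay within 1.5-fold (log2 0.03, interval -0.31 to 0.37). Ddit3, the stress-induced member also called CHOP, also lay within 1.5-fold of vector (log2 -0.10, interval -0.47 to 0.27). Cebpa, the fat and liver member, was too dim to be tested, at 538, 463 and 632 units in vector and 459, 1014 and 910 in CEBPD.

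C/EBPδ cells differed from vector cells at 25 probe sets, 0.359% of those tested, and all 25 were higher. They stand for 21 named genes and 3 probe sets without a gene of their own, since Cxcl1 was called by 2 probe sets. Read through the brightest probe set of each gene, 19 of 5338 genes were called (0.356%). In that reading 369 genes had every CEBPD array above every vector array and 262 had every one below. These counts are the background for the gene lists. The lists were drawn up with earlier results of these data known, so counts of calls in them are description only. The called differences ran from log2 0.65 to 2.69, and 15 of the 25 exceeded 2-fold. On the lower side 0 probe sets were called by limma, the lowest adjusted p being 0.113, although 144 were lower and 299 higher at an unadjusted p under 0.05. Arrays fell fully apart, with every CEBPD array above every vector array, at 483 probe sets (6.94%), and with every CEBPD array below at 332 (4.77%). All 25 called probe sets were among the 483, so no vector array crosses a CEBPD array at any of them. Without CEBPD replicate 2 the count of calls was 13. With the CEBPD and vector arrays alone 14 of the 25 were called. The calls lost there were Glrx, Mgst1, Nus1, Hmgcs1, Errfi1, Plpp3, H2-M2, Osmr, Cyb5a and the called probe sets annotated to several genes. Without the 5 arrays numbered 1, 9 were called. Those were Lpl, Cxcl5, Hp, Cd1d1, Aldh3a1, Fgf7, Xdh, the probe set shared by Ifi204 and its relatives, and the one with no gene.

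**Figure D1:**
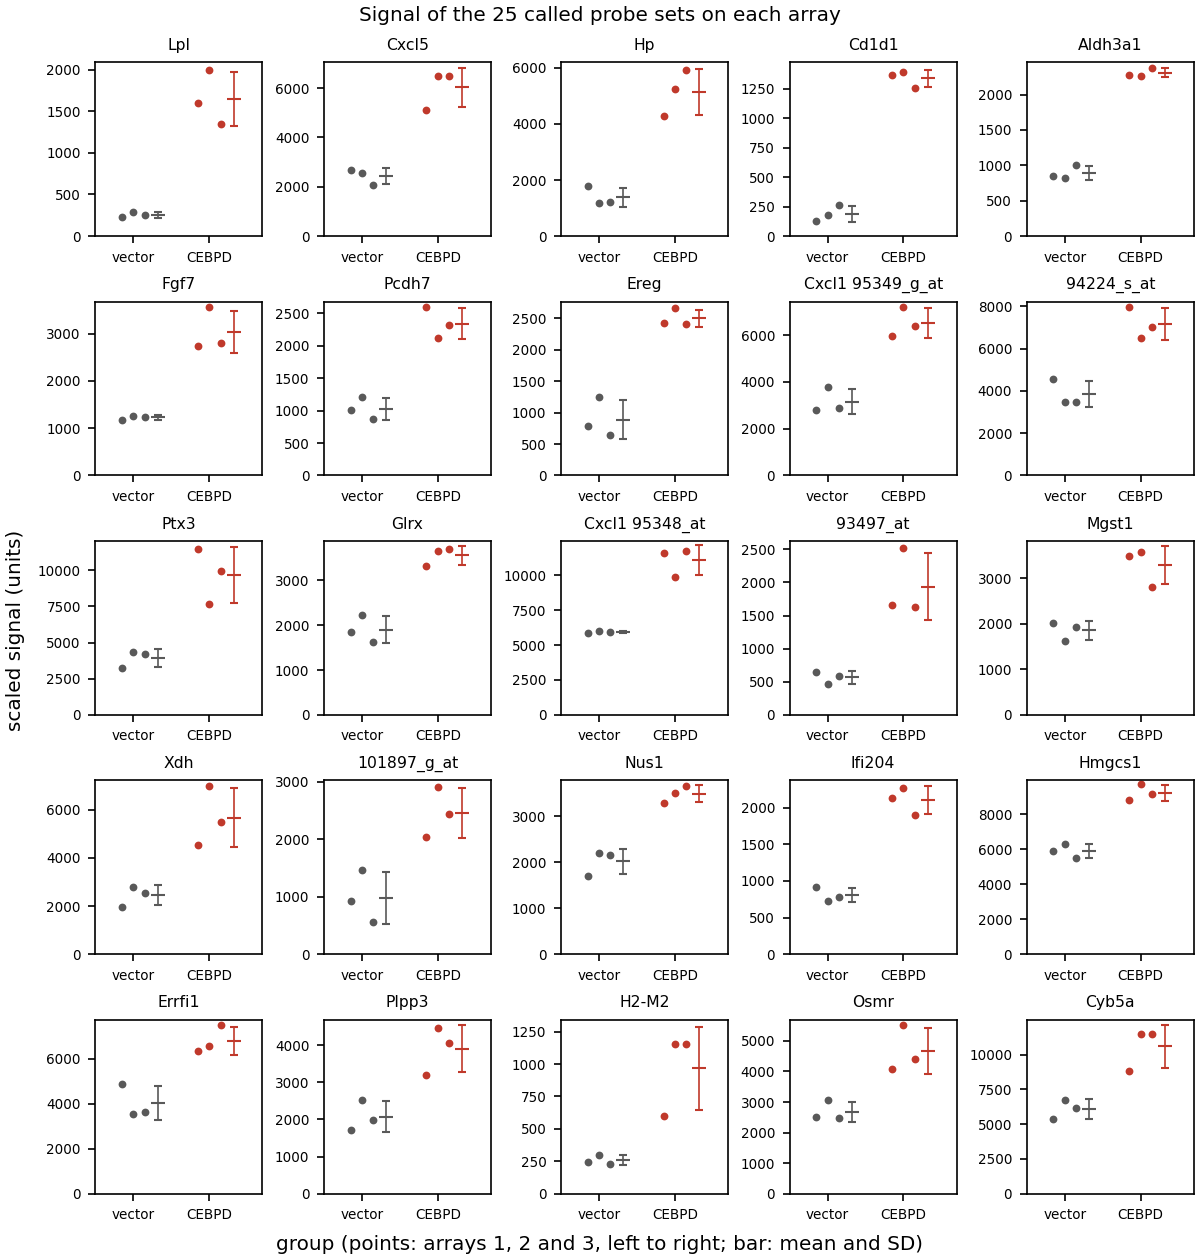
Scaled signal (units, linear axis from 0) of the 25 called probe sets on the 3 vector arrays (grey) and the 3 CEBPD arrays (red), with mean and SD beside the points. In each panel the red points lie above all grey points; Lpl goes from 223 to 289 units in vector to 1351 to 1998 in CEBPD.

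Lpl, the lipoprotein lipase that releases fatty acids from circulating lipoproteins and an early marker of fat cell differentiation, had the lowest p. Its signal was 223, 289 and 249 units in vector and 1594, 1998 and 1351 in CEBPD. The lowest CEBPD array was above 4 times the highest vector array, and the fitted rise was 6.44-fold (log2 2.69, SE 0.23, adjusted p = 1.27e-05). Another Lpl probe set read 650, 390 and 678 against 1077, 1109 and 684, a log2 difference of 0.75 that was not called (adjusted p = 0.630). The Lpl probe sets thus give different sizes. All CEBPD arrays lay above vector in both, but at the uncalled probe set only narrowly (684 against 678 units). Of 15 fat cell genes tested, Lpl was the 1 called, and the list median was -0.03, beside 0.01 over all genes tested. In the list 3 genes had every CEBPD array above vector and 0 had every one below, beside 369 and 262 of all 5338 genes tested. Abcd2, a peroxisomal fatty acid transporter, was among the 3, at 283, 85.0 and 268 units against 691, 355 and 535, with 1 vector array at the floor and no call (log2 1.06, adjusted p = 0.598). Pparg, the nuclear receptor of fat cell differentiation, read 259, 326 and 409 units in CEBPD, and 175, 77.8 and 21.3 in vector, which lay under the floor of 189.652 units (adjusted p = 0.941). Adipoq and Fabp4, defining genes of mature fat cells, were too dim to be tested, with means of 237 and 314 units in CEBPD. Fabp5 (-0.54) and Gpd1 (-0.53), which handle fatty acids and glycerol, had overlapping arrays.

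The acute phase genes Hp and Ptx3 rose. Hp encodes haptoglobin, the plasma protein that binds free haemoglobin, and read 1770, 1164 and 1216 units in vector and 4297, 5238 and 5909 in CEBPD. The rise was 3.76-fold (log2 1.91, SE 0.20, adjusted p = 1.09e-04). Ptx3, a secreted pentraxin of innate immunity, read 3257, 4379 and 4197 in vector and 11437, 7630 and 9963 in CEBPD, a 2.44-fold rise (log2 1.29, SE 0.20, adjusted p = 0.00399). Its call was lost without the 5 arrays numbered 1 (adjusted p = 0.0676), with no filter (0.0517) and in the univariate test (0.0603). These are 2 of the 8 acute phase and complement genes tested, beside 19 called of all 5338, and the median of the 8 was 0.28. In 4 of the 8 all CEBPD arrays were higher and in 0 all lower, beside 369 and 262 of all 5338. Lcn2 (0.18) and the serum amyloid genes Saa2 (-0.17) and Saa3 (-0.21), further acute phase genes, were not called. Kng1, the precursor of kinins, read 383, 1301 and 1186 against 1772, 1803 and 1846, with arrays apart but no call (log2 1.11, adjusted p = 0.389).

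Promoter sequences were available in the reference for 12 of the 21 called genes, as windows of 250 bases before to 50 after the start (RefSeq, GRCm38.p6). The C/EBP motif TTGCNNAA, searched on both strands, was in the window of 2 of these 12 genes, Ptx3 and Mgst1. It was in 10.8% of all 32851 windows and in a window of 12.2% of all 27025 genes. The palindrome TTGCGCAA, which the first motif includes, was in 0 of the 12 and in 0.183% of windows. The Ptx3 window is chr3:66219637-66219936 and the Mgst1 window chr6:138140277-138140576, both on the plus strand, shown since they are the called genes that hold the motif, in capitals. The match begins 57 bases before the Ptx3 start and 83 bases before the Mgst1 start. A match describes letters only, and binding was not measured here.
Ptx3: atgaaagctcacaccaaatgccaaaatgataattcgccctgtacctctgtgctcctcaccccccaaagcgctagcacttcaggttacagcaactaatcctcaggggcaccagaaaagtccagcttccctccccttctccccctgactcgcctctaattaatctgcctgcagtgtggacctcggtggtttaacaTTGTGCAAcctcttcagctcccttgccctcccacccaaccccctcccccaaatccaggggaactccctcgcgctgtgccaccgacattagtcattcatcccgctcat
Mgst1: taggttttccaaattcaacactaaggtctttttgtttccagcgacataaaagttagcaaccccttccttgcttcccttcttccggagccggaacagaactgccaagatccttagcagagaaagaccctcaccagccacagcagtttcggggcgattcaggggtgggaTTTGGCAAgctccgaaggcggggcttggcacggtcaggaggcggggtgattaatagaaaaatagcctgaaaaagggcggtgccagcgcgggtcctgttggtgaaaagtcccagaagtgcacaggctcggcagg

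Cxcl5 and Cxcl1, chemokines that attract neutrophils through the receptor CXCR2, rose. Cxcl5 read 2667, 2552 and 2075 units in vector and 5135, 6478 and 6494 in CEBPD, a 2.48-fold rise (log2 1.31, SE 0.13, adjusted p = 7.48e-05). Both Cxcl1 probe sets were called. The brighter read 5850, 6031 and 5905 against 11608, 9860 and 11755 (log2 0.90, SE 0.14, adjusted p = 0.00528), and the dimmer gave log2 1.05 (adjusted p = 0.00179). The vector arrays of the brighter Cxcl1 probe set differed little, and every CEBPD array was above them. In the fit of the arrays numbered 2 and 3 alone, neither Cxcl1 probe set was called (adjusted p = 0.183 and 0.0563). Ccl7, a monocyte chemokine, read 7273, 7999 and 8632 against 12158, 13872 and 12346 and just missed the threshold (log2 0.68, adjusted p = 0.0536). Its adjusted p was under 0.05 with quantile normalization (0.00360), with no further scaling (0.00477) and without CEBPE replicate 2 (0.0251), among other settings. The list of 16 chemokines and cytokines had 2 called genes, 6 with CEBPD arrays all higher, 2 all lower and a median of 0.21. Of all 5338 genes tested, 19 were called, 369 were all higher and 262 all lower. Il11, an interleukin 6 family cytokine, read 1343, 1511 and 1642 against 790, 928 and 922 (log2 -0.77, adjusted p = 0.938), with arrays apart. Tnfaip6, a hyaluronan-binding protein of inflamed tissue, read 1030, 633 and 722 against 1843, 1760 and 1601 (log2 1.15, adjusted p = 0.391).

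Secreted growth factors made up another group of calls. Fgf7, the keratinocyte growth factor that fibroblasts make for epithelia, read 1175, 1263 and 1242 units in vector and 2741, 3555 and 2802 in CEBPD, a 2.46-fold rise (log2 1.30, SE 0.15, adjusted p = 2.58e-04). Ereg, the EGF receptor ligand epiregulin, read 780, 1243 and 640 against 2428, 2658 and 2413, a 2.93-fold rise (log2 1.55, SE 0.22, adjusted p = 0.00178). The CEBPD arrays of Ereg varied less than its vector arrays. Without the 5 arrays numbered 1 the Ereg call was lost (adjusted p = 0.0563). Of 20 growth factor and receptor genes tested, 2 were called, beside 19 of all 5338, and the median was -0.13. In 3 of the 20 all CEBPD arrays were higher and in 4 all lower, beside 369 and 262 of all 5338. Met, the hepatocyte growth factor receptor, read 205, 125 and 264 against 995, 768 and 420, with 1 vector array at the floor, arrays apart and no call (log2 1.66, adjusted p = 0.305). Ccn3 (-1.06) and Pdgfa (-0.35), both secreted growth regulators, had every CEBPD array below vector and were not called.

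The cell surface and signalling genes Osmr, Errfi1 and Pcdh7 rose. Osmr, the oncostatin M receptor subunit, read 2512, 3064 and 2467 units in vector and 4066, 5532 and 4424 in CEBPD (log2 0.80, SE 0.16, adjusted p = 0.0352). Leaving out single arrays ended the Osmr call 8 times: without vector replicates 1 and 3 (adjusted p = 0.194 and 0.203), CEBPA replicates 1, 2 and 3 (0.0507, 0.0538 and 0.0568), CEBPD replicates 2 and 3 (0.293 and 0.123) and CEBPE replicate 3 (0.0586). Errfi1, a feedback inhibitor of the EGF receptor, read 4884, 3538 and 3647 against 6344, 6575 and 7524 (log2 0.77, SE 0.14, adjusted p = 0.0156). Its call was lost without vector replicates 2 and 3 (0.0778 and 0.116) and without CEBPD replicates 2 and 3 (0.0788 and 0.139). The other Errfi1 probe set gave log2 0.51 with arrays apart (adjusted p = 0.308). Pcdh7, a protocadherin of the cell surface, read 1008, 1211 and 874 against 2591, 2110 and 2312, a 2.28-fold rise (log2 1.19, SE 0.15, adjusted p = 4.79e-04). That call held in all 15 fits without 1 array and was lost without the 5 arrays numbered 1 (adjusted p = 0.0563). Another Pcdh7 probe set, too dim to be tested, read 680, 684 and 1050 against 322, 844 and 201, with overlapping arrays and a log2 difference of -1.05, opposite in sign. Aldh3a1, Ereg and Ifi204 each had a further probe set that was too dim to be tested and whose arrays overlapped.

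Antigen presentation contributed Cd1d1 and H2-M2. Cd1d1, which presents lipids to natural killer T cells, read 129, 179 and 261 units in vector, with 2 arrays at the floor, and 1372, 1392 and 1257 in CEBPD. The rise was 6.35-fold against the floored values (log2 2.67, SE 0.29, adjusted p = 1.57e-04). A called probe set that the annotation gives to both Cd1d1 and its near copy Cd1d2 read 926, 1462 and 564 against 2028, 2900 and 2432 (log2 1.41, adjusted p = 0.00927). Without CEBPD replicate 2 that probe set was lost (adjusted p = 0.0832), whereas Cd1d1 was called in all 15 fits without 1 array. Signal from the copies may be shared between these probe sets. H2-M2, a nonclassical MHC class I gene, read 242, 300 and 227 against 599, 1152 and 1153 (log2 1.87, SE 0.37, adjusted p = 0.0323). CEBPD replicate 1 read lowest for H2-M2 among the CEBPD arrays, and all 3 were above vector. The H2-M2 call was lost without vector replicates 1 and 3 (0.122 and 0.128), CEBPB replicate 2 (0.0509), CEBPD replicates 2 and 3 (0.272 and 0.225) and CEBPE replicates 1 and 3 (0.0508 and 0.0586). With a floor at the 40th percentile its adjusted p was 0.881. B2m, the shared light chain of class I molecules, lay at log2 -0.18 (interval -0.49 to 0.13), and 9 of the 11 presentation genes tested were not called. Over all 5338 genes tested 19 were called. In 2 of the 11 all CEBPD arrays were higher and in 1 all lower, beside 369 and 262 of all 5338.

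Aldh3a1, Xdh and Mgst1 were the 3 genes called of 16 in the metabolic and detoxification list, beside 19 of all 5338 genes tested. The list median was 0.20. By array 5 genes of the list were all higher and 2 all lower, beside 369 and 262 of all 5338 genes tested. Aldh3a1, an aldehyde dehydrogenase, read 849, 815 and 1007 units in vector and 2282, 2261 and 2378 in CEBPD, a 2.60-fold rise (log2 1.38, SE 0.16, adjusted p = 1.77e-04). Xdh, xanthine dehydrogenase of purine breakdown, read 1980, 2792 and 2556 against 4551, 6964 and 5496, a 2.31-fold rise (log2 1.21, SE 0.20, adjusted p = 0.00927). The Xdh call was lost without vector replicate 1 (0.0712) and without CEBPD replicate 2 (0.0832). Mgst1, a membrane glutathione transferase, read 2017, 1628 and 1941 against 3501, 3575 and 2817 (log2 0.82, adjusted p = 0.00847). The Mgst1 call was lost without CEBPD replicate 2 (0.0792), with the CEBPD and vector arrays alone and without the 5 arrays numbered 1. Glrx, the thiol-reducing glutaredoxin, read 1848, 2235 and 1625 against 3312, 3648 and 3703 (log2 0.91, adjusted p = 0.00528), a call lost with the CEBPD and vector arrays alone (0.0794) and without the 5 arrays numbered 1 (0.0563). Cyb5a, the electron carrier cytochrome b5, read 5368, 6747 and 6131 against 8794, 11491 and 11508 (log2 0.80, adjusted p = 0.0358). The Cyb5a call was lost without vector replicates 1 and 3 (0.236 and 0.130), CEBPB replicates 1, 2 and 3 (0.0508, 0.0509 and 0.0653), CEBPD replicates 2 and 3 (0.272 and 0.227) and CEBPE replicate 3 (0.0606). Glrx and Cyb5a are not in that list. Gsta4, a glutathione transferase in the list, read 1855, 2545 and 2125 against 1393, 1623 and 1277, with every CEBPD array below vector and no call (log2 -0.60, adjusted p = 0.548). Nnmt, a nicotinamide methyltransferase, had every CEBPD array above vector and no call (log2 1.52, adjusted p = 0.151). Nnmt passed with array weights (0.0420), with the replicate block (0.0293) and without CEBPE replicate 3 (0.0209).

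The sterol and lipid genes Hmgcs1, Nus1 and Plpp3 rose. Hmgcs1, which makes the HMG-CoA from which cholesterol is built, read 5907, 6309 and 5484 units in vector and 8827, 9723 and 9154 in CEBPD (log2 0.65, SE 0.12, adjusted p = 0.0128). The Hmgcs1 call was lost without vector replicates 1 and 3 (0.0695 and 0.104) and CEBPD replicates 2 and 3 (0.108 and 0.0750). Of 16 cholesterol synthesis genes tested, Hmgcs1 was the 1 called, beside 19 of all 5338. An estimate above 0 was found in 13 of the 16, beside 2799 of all 5338, and the list median was 0.21. In 2 of the 16 all CEBPD arrays were higher and in 0 all lower, beside 369 and 262 of all 5338. Nus1, a subunit of the enzyme that makes dolichol chains, read 1705, 2198 and 2160 against 3292, 3518 and 3668 (log2 0.80, adjusted p = 0.0113), a call lost without vector replicate 1 (0.0944) and CEBPD replicates 2 and 3 (0.0788 and 0.0844). Plpp3, a phosphatase of bioactive lipids, read 1713, 2527 and 1975 against 3206, 4448 and 4051 (log2 0.92, SE 0.17, adjusted p = 0.0197). The Plpp3 call was lost without vector replicates 1 and 3 (0.158 and 0.112) and CEBPD replicates 2 and 3 (0.200 and 0.135). Fatty acid oxidation genes gave 0 calls among 16 and a median of 0.11. The highest of them, Echs1, read 228, 1245 and 668 against 1207, 2465 and 2619, with overlapping arrays (log2 1.79, adjusted p = 0.126). Echs1 passed with array weights (0.00277), with the replicate block (0.0100) and without the 5 arrays numbered 1 (0.0295). It also passed without vector replicate 2 (0.00721) and without CEBPD replicate 1 (0.0454).

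An interferon-inducible gene family was read by overlapping probe sets. Ifi204, a DNA-sensing member, read 912, 723 and 784 units in vector and 2136, 2275 and 1906 in CEBPD at its called probe set (log2 1.39, SE 0.24, adjusted p = 0.0113). That call was lost without vector replicates 2 and 3 (0.0569 and 0.0624) and CEBPD replicate 2 (0.0854). At a brighter probe set Ifi204 gave log2 0.59 with arrays apart and no call (adjusted p = 0.546). A called probe set annotated to Mndal, Ifi211, Ifi205 and Ifi204 read 4543, 3475 and 3477 against 7979, 6479 and 7007 (log2 0.91, adjusted p = 0.00179). The family holds near copies, so the called member is uncertain. The list of 9 interferon-induced genes tested includes Ifi204, read there through its brighter, uncalled probe set. Read in that way, 0 of the 9 were called, beside 19 of all 5338 genes tested. In 3 of the 9 all CEBPD arrays were higher and in 0 all lower, beside 369 and 262 of all 5338. The 9 estimates ran from log2 -0.22 to 1.24. Irf1 lay at -0.07 and Ifitm3 at -0.16. A called probe set to which the annotation gives no gene read 646, 460 and 588 against 1666, 2522 and 1624 (log2 1.76, adjusted p = 0.00568), a call lost without CEBPD replicate 2 (0.0676).

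**Figure D2:**
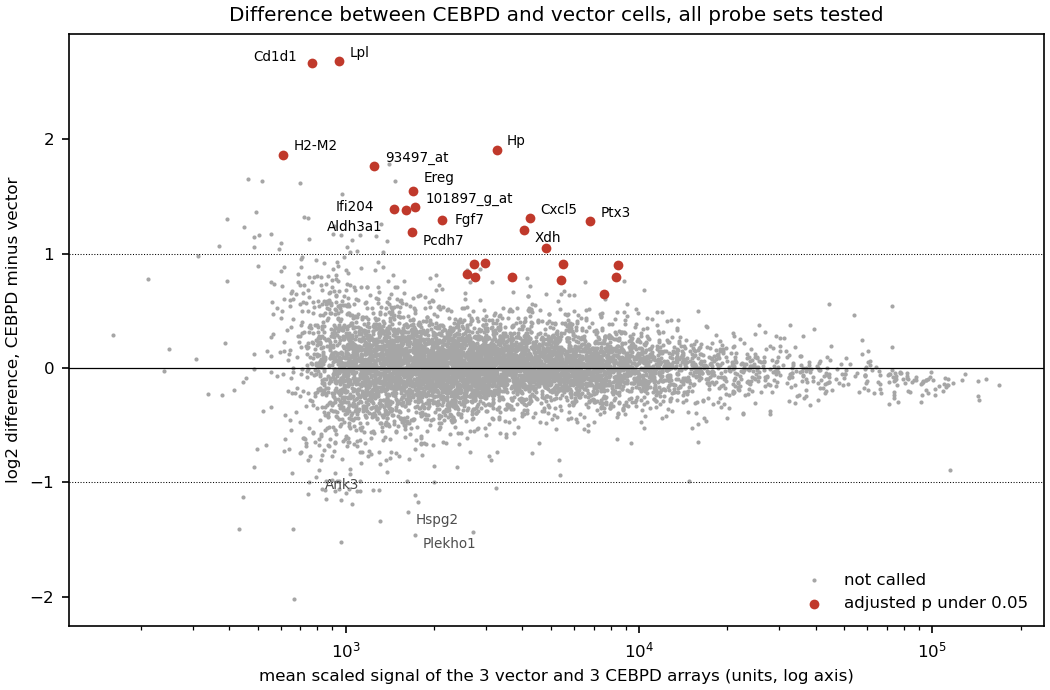
Log2 difference, CEBPD minus vector, of the 6963 probe sets tested against their mean scaled signal in the 2 groups (log axis), with the 25 called in red and dotted lines at 2-fold. The red points all lie above 0 and stop at log2 2.69 (Lpl), while Hspg2, Plekho1 and Ank3 mark uncalled probe sets on the lower side.

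The called set thins out gradually at its edge. The last called probe set had an adjusted p of 0.0358 (Cyb5a) and the next 0.0536 (Ccl7), and 32 probe sets were higher and 0 lower at an adjusted p under 0.1. Dcn, the collagen-binding proteoglycan decorin, read 2750, 3582 and 2823 units against 5099, 5865 and 4818 with arrays apart (log2 0.79, adjusted p = 0.0577). Dcn passed with quantile normalization (0.00163), no further scaling (0.00444), the median ratio (0.0105), a floor at the 40th percentile (0.0448), array weights (0.00310) and the replicate block (0.00323). It also passed without vector replicate 2 (0.0353) and without CEBPE replicates 1 and 2 (0.0206 and 0.0316). Tank, an adaptor that binds TRAF proteins, had the tightest arrays of these genes, at 4106, 4146 and 4088 against 5707, 5738 and 5714 (log2 0.48, adjusted p = 0.139). Tank passed in the univariate test (adjusted p = 0.0306), with array weights (0.0216) and with no filter (0.0317), and its adjusted p ran up to 0.631 over the other settings. Thbs2 (0.86) and Vcan (0.87), extracellular matrix genes, also had arrays apart without a call. Both passed with array weights (0.0137 and 0.0415) and with the replicate block (0.0376 and 0.00454). Vcan also passed with no further scaling (0.0388) and without vector replicate 3 (0.0377).

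On the lower side the smallest p-values belonged to genes of varied function. Hspg2, the basement membrane proteoglycan perlecan, read 2012, 2254 and 2352 units in vector and 661, 644 and 1827 in CEBPD (log2 -1.26, adjusted p = 0.113). CEBPD replicate 3 stood apart from the other 2, and without it Hspg2 passed (adjusted p = 3.53e-04), as it did with the replicate block (0.0441). Plekho1, a regulator of actin and kinase signalling, read 2496, 2524 and 2525 against 1059, 913 and 788 (log2 -1.46, adjusted p = 0.208). All CEBPD arrays of Plekho1 were well below the vector arrays, and it passed with a floor at the 40th percentile (adjusted p = 0.00725), with the CEBPD and vector arrays alone (0.0235) and with array weights (0.0435). Ank3 (-0.95), which links membrane proteins to the cytoskeleton, Kcnn4 (-0.58), a calcium-activated potassium channel, and Nr1d1 (-0.54), the clock repressor REV-ERBα, had arrays apart and were not called. Postn, the matrix protein periostin, read 986, 1272 and 944 against 630, 646 and 719 (log2 -0.67, adjusted p = 0.382).

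How much the data bound the remaining genes was read from the 95% interval of each difference, without adjustment for the number of genes. The interval lay wholly within 1.5-fold in either direction at 3682 of 6963 probe sets (52.9%) and within 2-fold at 6078 (87.3%). The median interval reached 0.41 log2 units, or 1.33-fold, to either side. The bound depended on signal: from the dimmest to the brightest of 4 bins of equal size, 12.4%, 50.1%, 69.7% and 79.3% lay within 1.5-fold. Of the 25 calls, 1 fell in the dimmest bin, followed by 8, 7 and 9. In the dimmest bin 62.2% were bounded within 2-fold. The estimated differences of all probe sets had a median of 0.01 and an SD of 0.28.

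The brightest genes within 1.5-fold included the ribosomal protein genes Rpl41 (log2 -0.15, interval -0.53 to 0.23), Rplp0 (-0.10, interval -0.48 to 0.28) and Rps28 (-0.11, interval -0.46 to 0.25), the elongation factor Eef1a1 (-0.05, interval -0.44 to 0.33) and the iron store Fth1 (-0.07, interval -0.45 to 0.30). Cytosolic ribosomal protein genes had a median of -0.10 over 24 tested, which became -0.00 with quantile normalization, and 0 were called. Proteasome genes had 31 of 31 within 2-fold, 27 of 31 within 1.5-fold and a median of -0.01. Cell cycle and DNA replication genes had 30 of 30 within 2-fold and 26 of 30 within 1.5-fold, beside 55.7% within 1.5-fold over all genes tested. Cdc20 (0.01), Pcna (0.13) and Cdk4 (0.09), of mitosis, replication and entry into S phase, all had overlapping arrays, and Rrm2, a subunit of the enzyme that makes deoxynucleotides, had arrays apart without a call (0.38, adjusted p = 0.513). Growth arrest genes had 9 of 14 within 1.5-fold and 0 called. Gas1, a growth arrest gene of resting fibroblasts, read 3569, 5089 and 4060 against 5675, 7535 and 6635 (log2 0.65, adjusted p = 0.305).

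Fibroblast identity genes were not called either. Of 31 collagen and matrix genes 0 were called, beside 19 of all 5338 genes tested. Of the 31, 14 (45.2%) lay within 1.5-fold and 22 (71.0%) within 2-fold, beside 55.7% and 89.0% of all genes tested. The 31 estimates ran from log2 -1.40 to 0.89. In 6 all CEBPD arrays were higher and in 4 all lower, beside 369 and 262 of all 5338 genes tested. Col1a1 and Col1a2, the chains of type I collagen, read log2 -0.23 (interval -0.65 to 0.19) and -0.20 (interval -0.67 to 0.28) with overlapping arrays. Smooth muscle genes (12 tested), matrix proteases and inhibitors (11), circadian clock genes (12), Id and TGF-beta feedback genes (13), oxidative phosphorylation genes (47) and glycolysis genes (15) each had 0 calls. Their medians ran from -0.14 for smooth muscle genes to 0.12 for glycolysis. Granulocyte and myeloid genes also had 0 calls among 8 tested. S100a8, a calcium-binding protein of neutrophils, read 714, 803 and 524 against 975, 1433 and 1087 (log2 0.78, adjusted p = 0.518).

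**Figure D3:**
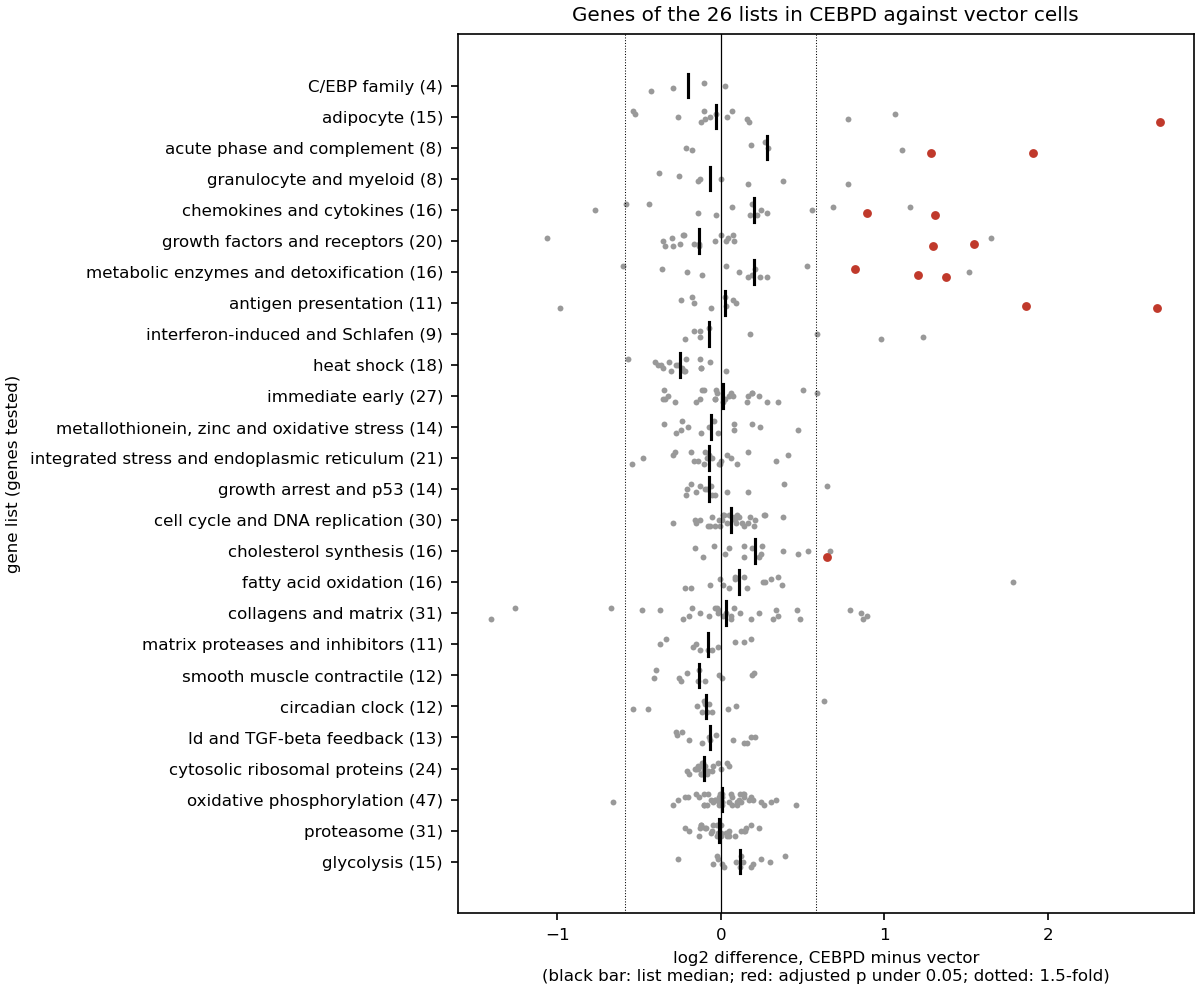
Log2 difference, CEBPD minus vector, of every tested gene (points) in the 26 gene lists, with the list median as a black bar, called genes in red and dotted lines at 1.5-fold. Most medians lie near 0, the heat shock median lies at -0.25 and the acute phase median at 0.28, and red points occur in 7 lists.

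Zinc itself is a stressor and induces metallothioneins, and these genes were high in both groups. Mt2, a zinc-binding metallothionein, read 136176, 168890 and 160951 units in vector and 133096, 126880 and 131938 in CEBPD (log2 -0.24, interval -0.58 to 0.09). Mt1 gave log2 -0.28 (interval -0.68 to 0.12), and all CEBPD arrays lay below vector for both. Hmox1, the haem-degrading enzyme of oxidative stress, read 99003, 102191 and 97965 against 91209, 72911 and 90778 (log2 -0.24, interval -0.62 to 0.14). Of 14 metallothionein, zinc and oxidative stress genes 0 were called, beside 19 of all 5338 genes tested. All 14 lay within 2-fold and 10 (71.4%) within 1.5-fold, beside 89.0% and 55.7% of all genes tested. In 5 all CEBPD arrays were lower and in 2 all higher, beside 262 and 369 of all genes tested. The transgene is driven by a metallothionein promoter too, and its output was not measured by these genes.

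Heat shock genes gave 0 calls. Of 18 tested, 17 had an estimate below 0, 9 had all CEBPD arrays below vector (background 4.77% of probe sets), and the median was -0.25. That median ran from -0.25 to -0.22 over the other scalings. Hspa1b, an inducible Hsp70, read 74070, 86386 and 79416 units in vector and 60223, 72441 and 71305 in CEBPD (log2 -0.24, interval -0.54 to 0.07). Dnajb1, its Hsp40 partner, gave log2 -0.40 (interval -0.82 to 0.02), and the small heat shock protein gene Cryab -0.36 (adjusted p = 0.709). The spread of the arrays does not separate these differences from 0 at the adjusted threshold, and 17 of the 18 lay within 2-fold. Immediate early genes, the rapid transcriptional response to stimuli, gave 0 calls among 27 tested, with 25 within 2-fold and a median of 0.01. Dusp1, a MAP kinase phosphatase, read 19468, 21325 and 21095 against 18289, 22599 and 20178 (log2 -0.02, interval -0.27 to 0.22). Genes of the integrated stress and endoplasmic reticulum responses gave 0 calls among 21, and Atf4, their central activator, lay at 0.00 (interval -0.23 to 0.24).

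Stress genes were also compared directly between C/EBPδ cells and the other C/EBP cells. Over all probe sets, CEBPD was higher than CEBPA at 352 (5.06%) and lower at 233 (3.35%), higher than CEBPB at 185 (2.66%) and lower at 147 (2.11%), and higher than CEBPE at 307 (4.41%) and lower at 265 (3.81%). Among the 18 heat shock genes, CEBPD was called higher than CEBPA in 14, than CEBPB in 10 and than CEBPE in 14, and lower in 0. Among the 27 immediate early genes it was called higher in 13, 9 and 10 in that order, and lower in 0. Other stress lists held fewer such calls. Integrated stress and endoplasmic reticulum genes were higher in CEBPD at 5, 4 and 7 of 21 and lower at 2, 1 and 1. Metallothionein, zinc and oxidative stress genes were higher at 3, 5 and 2 of 14 and lower at 1, 1 and 2, and growth arrest and p53 genes were higher at 6, 4 and 5 of 14 and lower at 1, 2 and 2. These 3 comparisons share the CEBPD arrays, so their counts are not independent of one another. Hspa1b read 67990 ± 6750 (SD, n = 3) in CEBPD, 4653 ± 832 in CEBPA, 27886 ± 909 in CEBPB and 3600 ± 476 in CEBPE, which is 14.7-fold, 2.43-fold and 18.9-fold higher in CEBPD. Gadd45g, a stress-induced growth arrest gene, was higher in CEBPD than in CEBPA, CEBPB and CEBPE by log2 4.34, 2.32 and 4.70 (adjusted p = 2.56e-08, 7.40e-05 and 7.89e-09). Ddit3 was 4.20-fold, 2.22-fold and 4.14-fold higher, and Hmox1 4.96-fold, 3.08-fold and 5.83-fold higher, all called. In the order of levels for Hspa1b, vector came highest and CEBPD next, a pair whose difference was not called, followed by CEBPB, CEBPA and CEBPE.

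**Figure D4:**
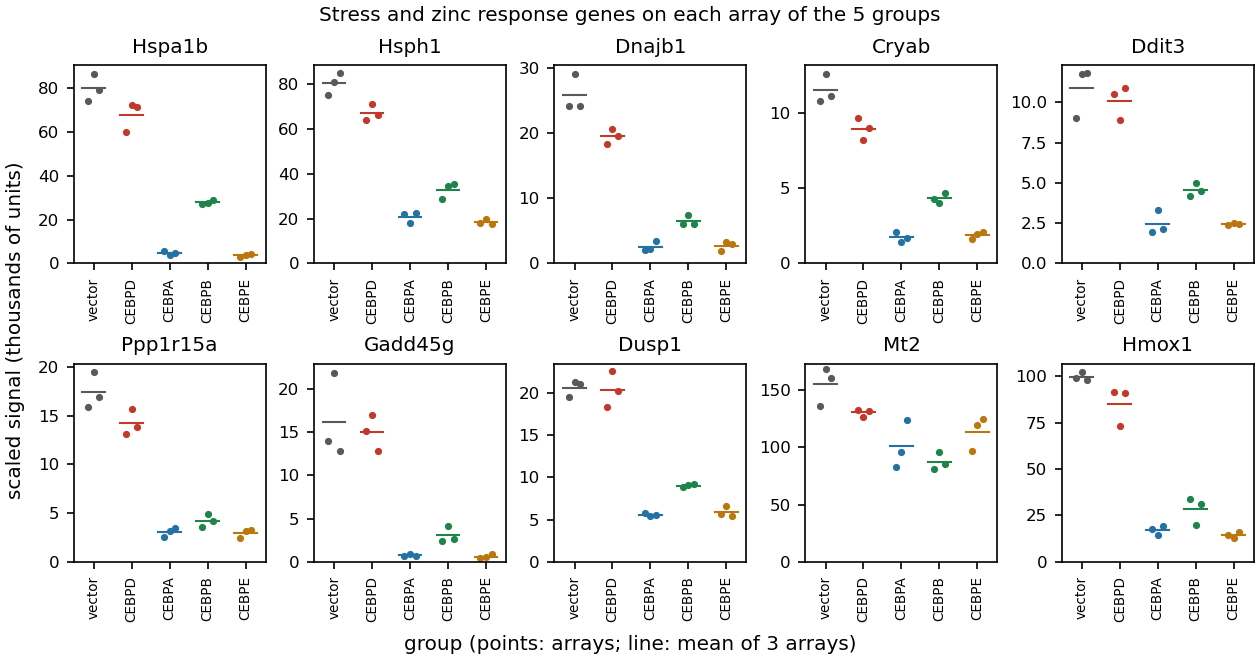
Scaled signal (kilounits, linear axis from 0) of 10 stress and zinc response genes on each of the 15 arrays by group, with group means as lines. For Hspa1b, Ddit3, Ppp1r15a, Gadd45g, Dusp1 and Hmox1 the vector and CEBPD arrays lie above all arrays of CEBPA, CEBPB and CEBPE, and the groups lie closer together for Mt2.

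The 25 probe sets called in C/EBPδ cells were then read in the other C/EBP cells. They were chosen on the CEBPD arrays that also enter these differences. CEBPD was higher than CEBPA at 1 of the 25, lower at 15 and not called at 9. Against CEBPB it was higher at 11, lower at 1 and not called at 13, and against CEBPE higher at 3, lower at 11 and not called at 11. Of the 5 groups, the highest mean lay in CEBPA for 13 of the 25, in CEBPE for 11 and in CEBPD for 1, Plpp3. Plpp3 was 1.94-fold higher than in CEBPA (adjusted p = 0.00162) and 2.11-fold higher than in CEBPB (adjusted p = 0.00124), and it did not differ from CEBPE at the threshold (log2 0.56, adjusted p = 0.0577).

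Lpl, Cd1d1 and Hp, the called genes with the largest rises, were lower in CEBPD than in CEBPA. Mean Lpl was 9839 ± 1560 units in CEBPA against 1648 ± 327 in CEBPD, a log2 difference of -2.58 (adjusted p = 8.35e-07), and Lpl was higher in CEBPD than in CEBPB (log2 0.88, adjusted p = 0.0305). Hp differed by -2.90 from CEBPA and was 2.02-fold higher than in CEBPE (adjusted p = 0.00388). Cd1d1 differed by -2.86 from CEBPA and was 2.41-fold and 3.04-fold higher than in CEBPB and CEBPE. Other genes had estimates nearer to those of CEBPA. Aldh3a1 (log2 0.40), Ereg (0.17), Ptx3 (-0.21), Errfi1 (-0.03) and H2-M2 (0.06) did not differ from CEBPA at the threshold. The interval for Errfi1 was -0.33 to 0.27, and that for H2-M2 was wider, -0.72 to 0.84. Ereg was 3.61-fold higher in CEBPD than in CEBPB (adjusted p = 7.40e-05), where its mean of 700 units lay near the vector mean of 888. Hmgcs1 was lower in CEBPD than in CEBPA (-0.52), CEBPB (-0.69) and CEBPE (-0.75), all called. Cholesterol synthesis genes as a list were called lower in CEBPD at 7, 8 and 10 of 16 against CEBPA, CEBPB and CEBPE, and higher at 0.

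**Figure D5:**
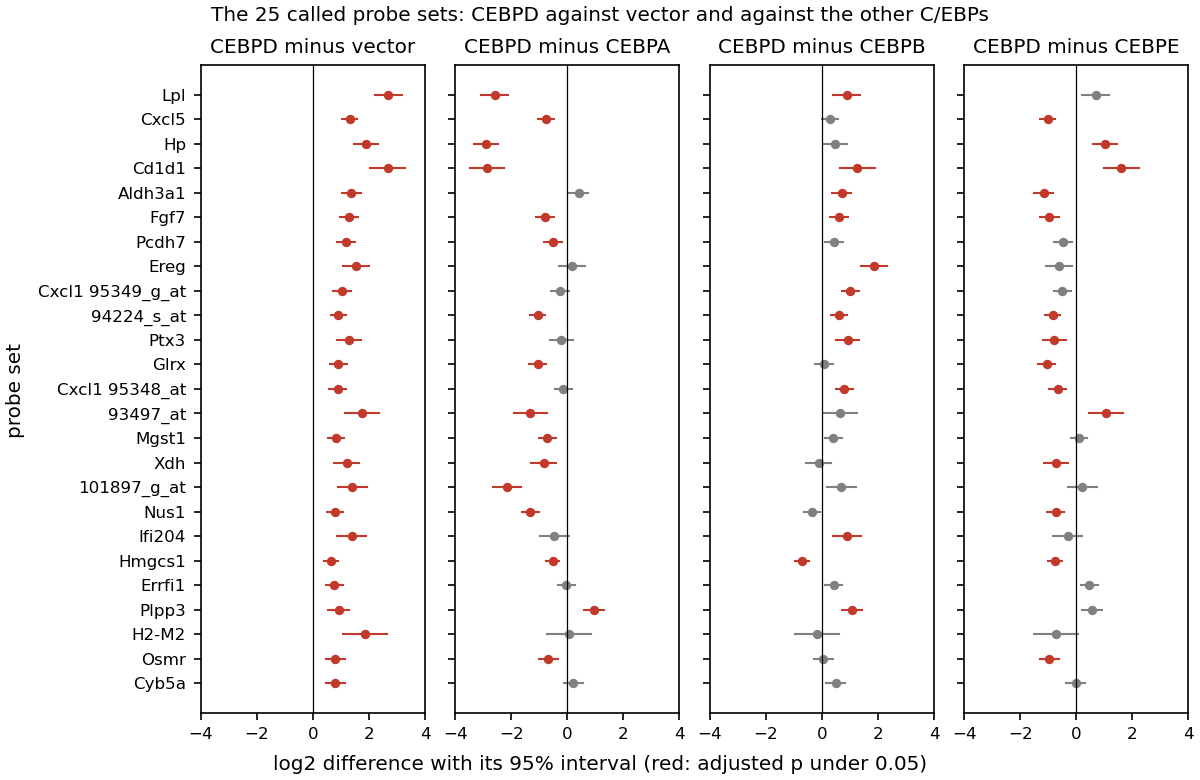
Log2 difference with its 95% interval at the 25 called probe sets, CEBPD minus vector, CEBPA, CEBPB and CEBPE from left to right, in red where the adjusted p was under 0.05. All 25 lie right of 0 against vector, 15 red points lie left of 0 against CEBPA, and 11 lie right of 0 against CEBPB.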

How the data were processed

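The authors deposited 1 intensity per probe set and array on a linear scale, made with Affymetrix Microarray Suite 5.0 per the submitters' processing notes; their 2% trimmed means ran from 2501.12 to 2501.39 and their medians from 994.6 to 1153.95. No detection calls or counts were used, so the number of arrays limits the precision. Here each array was brought to a common median, signals below 189.652 units (20th percentile of all arrays) were set to that floor, and values were logged (log2). A probe set was tested if at least 3 of 15 arrays lay above 1092.06 units, the median of all arrays. Symbols came from the array annotation, in which 10833 probe sets named 1 gene, 396 several and 1193 none. The model held a coefficient for each of the 5 groups over all 15 arrays (10 residual degrees of freedom), fitted with limma 3.58.1 under R 4.3.3, using lmFit and trended eBayes. Tests were two-sided, with Benjamini-Hochberg adjustment over 6963 probe sets in each contrast. The script was tested on simulated data. Genes named are all those called and the C/EBP family members on the array. The rest come mostly from a wider selection, of which only part is named. It held the 10 smallest p-values on each side that missed the threshold and the 10 brightest bounded genes. It also held up to 5 largest and, in lists with no call, up to 4 brightest members of each of 26 lists. A few other list members and markers were chosen after their values were seen. List counts read each gene through its tested probe set with the highest mean over the 15 arrays. The members and lists were chosen with earlier results of these data known. Alternatives changed the scaling, floor, filter, trend, weights or test, blocked on the replicate number, or used fewer arrays.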

Additional observations from a re-analysis of the deposited data

How the results depend on the processing

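Of the 25 called probe sets, 6 (Lpl, Cxcl5, Hp, Cd1d1, Aldh3a1 and Fgf7) were called under every alternative that tested them and in all 15 fits without 1 array, and 13 were called in all 15; the filter requiring 8 of 15 arrays did not test Lpl, Cd1d1 or H2-M2. No called difference changed sign. The count of 25 became 39 with quantile normalization (38 higher, 1 lower), 74 with array weights (68 and 6), 15 with the CEBPD and vector arrays alone (14 and 1, 14 shared with the 25) and 11 without the 5 arrays numbered 1 (10 and 1, 9 shared); the last 2 fits hold fewer arrays, and the cause of the others was not tested. Leaving out 1 array gave 13 (without CEBPD replicate 2) to 29. The count of differences bounded within 1.5-fold became 2346 without the 5 arrays numbered 1 and ran from 2775 to 3782 without 1 array, and that within 2-fold from 5714 to 6118. A replicate block gave 44 calls (43 higher, 1 lower), including all 25. With the block 4262 differences were bounded within 1.5-fold. The titles number the arrays and name no shared batch, so the main fit did not pair them. Whether the numbers mark a shared batch cannot be decided here. Same-numbered vector and CEBPD arrays deviated with correlations of 0.283, 0.342 and 0.0288. For Cebpb and Rplp0 the array numbered 1 read lowest in each of the 5 groups. Of 188 selected probe sets not called, whether named in the text or not, 24 were called under at least 1 alternative, and 45 changed sign at least once. Of 75 direct differences between CEBPD and the other C/EBPs, 39 changed call at least once. Signal limits the bounds: dim probe sets had the widest intervals.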
